A study of Homo sapiens with 8 samples.

Results

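The 41 genes described here encode the machinery that licenses, fires and copies DNA replication origins, together with 3 enzymes that supply its nucleotides. They were chosen by name from a list of the pathway, with earlier results of these data known. All 41 were found among the 22554 features of the tables and passed the filter on low counts. They were compared between cells of SKOV3, an established line from a human ovarian cancer, that had received low-density lipoprotein (LDL) at 50 µg/mL for 48 h (4 samples, LDL 1 to 4) and SKOV3 cells in ordinary medium (4 samples, control 1 to 4). Both groups grew in McCoy's 5A medium with 10% fetal bovine serum and antibiotics. The labels name no vehicle for the controls, and do not say if each sample came from its own culture. All p-values therefore refer to the variation among the 8 samples alone, part of which could be technical.

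Replication begins in G1, when the origin recognition complex (ORC), CDC6 and CDT1 load the ring-shaped MCM helicase onto DNA, a step known as licensing. At the start of S phase CDC45 and the GINS complex join the ring to make an active helicase, and polymerases, the sliding clamp PCNA and its loader then copy both strands. Many of these genes are textbook targets of the E2F transcription factors, and their mRNA levels are used as a sign of proliferation. In bulk RNA, fewer cells in S phase and less of the mRNA per cell cannot be told apart.

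Total estimated counts ran from 34682501 to 36780334 in the LDL libraries and from 37189698 to 44883561 in the control libraries. The 41 genes had between 371 and 15056 counts in each library. They took 0.469% ± 0.00444 of all counts in LDL samples and 0.476% ± 0.00616 in control samples (SD, n = 4 each). Of 9 markers of SKOV3 and epithelial cells, 7 averaged at least 1 CPM (counts scaled to library size), and the summed level of all 9 was 6097 to 6610 CPM in LDL and 5982 to 6446 CPM in control samples. WT1 and MUC16 were the 2 below that. Among the markers of other cell types PTPRC, the defining leukocyte gene, had a count of 0 in every library. Of 5 leukocyte markers 1 averaged at least 1 CPM, with a summed level of 48.9 to 53.0 CPM in LDL and 38.5 to 49.5 CPM in control samples, and of 4 endothelial markers 1 did, with 2.62 to 4.91 CPM in LDL and 3.79 to 4.65 CPM in control samples. The collagen gene COL1A1 stood at 146 CPM in LDL 4, while LDL 1, 2 and 3 had 366 to 398 CPM and the control samples 343 to 365 CPM. All 5 of the 5 fibroblast markers averaged at least 1 CPM, and their summed level was 167 to 432 CPM in LDL and 377 to 396 CPM in control samples. The part of this shift in the results was not tested, and the numbers of the 41 genes past each threshold are also given without LDL 4.

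None of the 41 genes passed the test for a difference between LDL and control. At an adjusted p under 0.05 over all 15432 genes tested (edgeR's quasi-likelihood test, Benjamini-Hochberg), 0 of 41 were called, where 0.0648% of all genes tested were called, and the smallest adjusted p among the 41 was 0.822. DESeq2 also called 0 of 41, with 0.24% of all genes called. At an unadjusted p under 0.05 there was 1 of the 41, against 5.59% of all genes tested. DESeq2 likewise gave 1 of 41, against 4.8% of all genes. The groups did not overlap for 1 of the 41, against 3.45% of all genes tested, and all of these counts are the same gene, ORC4.

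The intervals bound the difference of each gene taken alone. Like the p-values, they refer to the variation among the 8 samples, part of which could be technical. The number inside a 1.2-fold change was not counted again with samples left out. The 95% intervals of the 41 differences lay between 0.854 and 1.248 times the control level, and 39 of 41 intervals lay inside a 1.2-fold change in either direction. The exceptions were ORC4 and RPA3, whose intervals reached 1.248-fold and 1.22-fold. Of the 9164 genes tested within the same range of mean CPM, 72.7% had an interval inside a 1.2-fold change. Only the ends of that range were matched, not the spread of levels within it. The median SE was 0.059 for the 41 genes and 0.071 for the 9164, and the part of abundance in this was not tested. The log2 fold changes ran from -0.086 to 0.18 with a median of -0.015, beside a median of 0.0060 over all genes tested. A log2 fold change below 0 was found for 24 of the 41, against 47.7% of all genes tested.

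**Figure D1:**
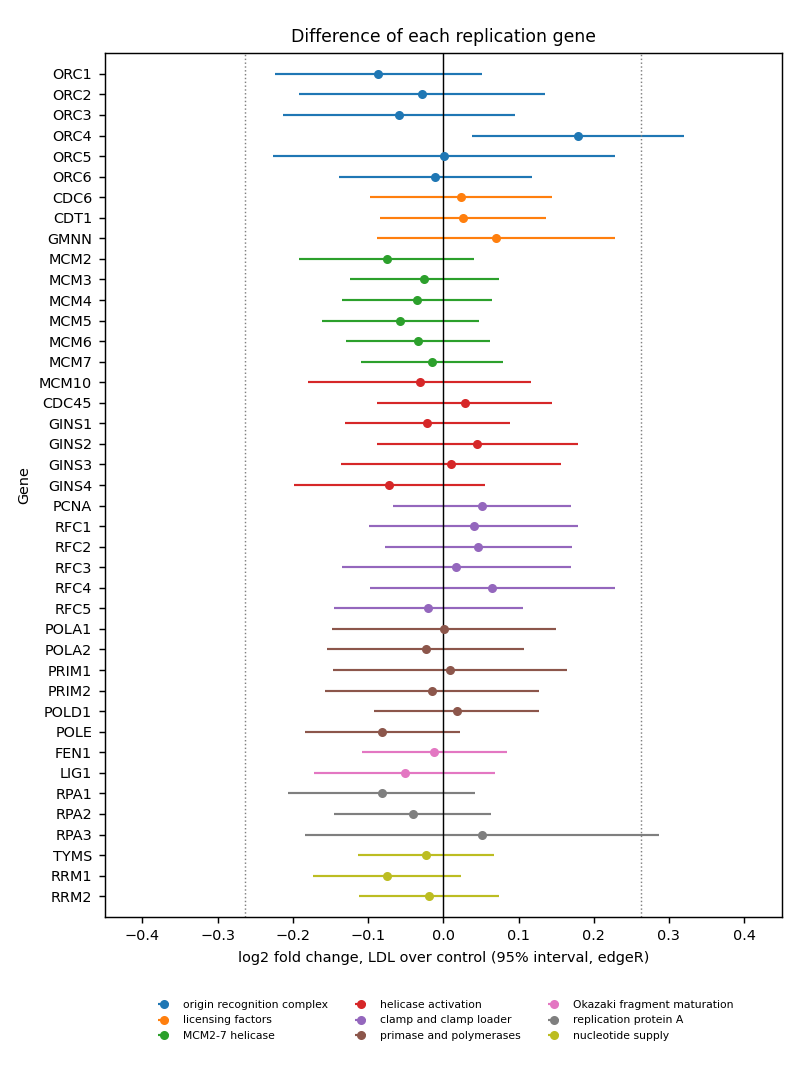
Log2 fold change of LDL over control for each of the 41 genes, with its 95% interval from edgeR (n = 4 samples each), coloured by role. The dotted lines mark a 1.2-fold change either way, and the interval of ORC4, from 0.038 to 0.32, is the only one that leaves out 0.

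**Figure D2:**
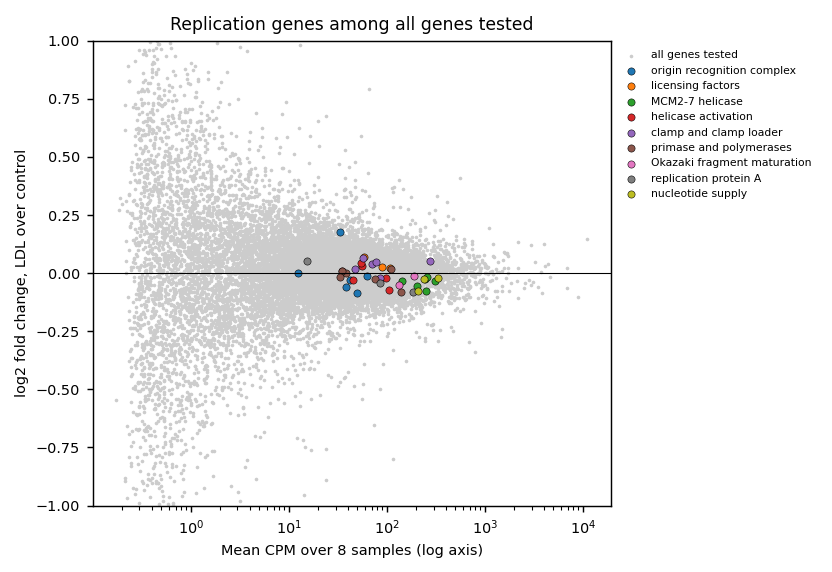
Log2 fold change of LDL over control against mean CPM over 8 samples (log axis) for all 15432 genes tested, in grey, and the 41 replication genes, in colour by role. The 41 genes lie between -0.086 and 0.18, and 123 genes beyond a log2 change of 1 are not shown.

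Per unit of length, the levels of the 41 genes spanned from 209 to 4.78 FPKM (fragments scaled to transcript length and library size). PCNA, the clamp that tethers polymerases to DNA, was the highest, at 209 ± 15.4 FPKM in LDL and 201 ± 5.16 FPKM in control samples (SD, n = 4 each). TYMS, thymidylate synthase, followed at 142 ± 4.61 FPKM in LDL and 143 ± 3.84 FPKM in control samples. RRM2, the small subunit of ribonucleotide reductase, was the third, at 97.3 ± 4.00 FPKM in LDL and 98.0 ± 1.58 FPKM in control samples, and its range overlapped that of MCM7. The lowest levels belonged to 2 ORC subunits and to the catalytic subunit of polymerase alpha. ORC4 had 5.40 ± 0.389 FPKM in LDL and 4.78 ± 0.180 FPKM in control samples, ORC5 had 6.21 ± 0.766 FPKM in LDL and 6.19 ± 0.348 FPKM in control samples, and POLA1 had 6.73 ± 0.445 FPKM in LDL and 6.66 ± 0.373 FPKM in control samples. The ranges of ORC5 and POLA1 overlapped each other in both groups.

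**Figure D3:**
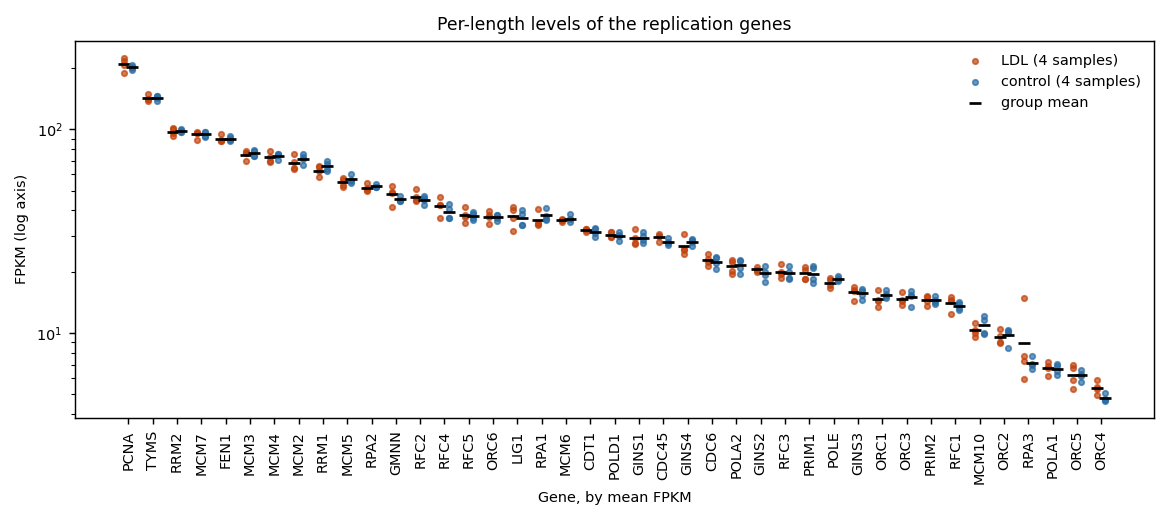
FPKM (log axis) of the 41 genes in 4 LDL samples and 4 control samples, ordered by mean FPKM, with a bar at each group mean. PCNA stands at 209 FPKM in LDL samples and ORC4 at 5.40 FPKM.

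The promoters of 4 genes are shown because E2F words were more frequent in the promoters of replication genes than in those of all genes. Promoter windows, taken from RefSeq (GRCh38.p14) as 250 bases before to 50 bases after an annotated start, were searched on both strands for 4 E2F words, TTTCCCGC, TTTCGCGC, TTTGCCGC and TTTGGCGC, which can overlap each other. At least 1 word was found for 18 of the 36 replication genes with an entry, or 50.0%, against 3.99% of all 27305 genes in the table and 6.50% of the 11118 genes tested here that have an entry. Some genes have several windows, and by window the shares were 39.1% of 46 against 3.31% of 35116. All 4 helicase genes with an entry held a word, as did 3 of 3 licensing factors, while 1 of 6 ORC genes did. These counts take any window of a gene. The words of MCM7 lay in 1 of its 3 windows, where none of its 4 protein-coding GENCODE 29 transcripts starts, and its window with a start held none. The windows of CDT1 and GINS1, which each hold a word, hold no such start either. The word of GMNN lay in the window with 1 start and not in that with 2. The matched letters are a description and not evidence of binding. The following windows show the contrast between helicase genes and ORC4, each on the strand of its gene with the E2F words in capitals. The MCM2 window is chr3:127598161-127598460 (plus strand), that of MCM3 chr6:52284693-52284992 (minus strand), that of MCM6 chr2:135876394-135876693 (minus strand) and that of ORC4 chr2:148020688-148020987 (minus strand).
MCM2: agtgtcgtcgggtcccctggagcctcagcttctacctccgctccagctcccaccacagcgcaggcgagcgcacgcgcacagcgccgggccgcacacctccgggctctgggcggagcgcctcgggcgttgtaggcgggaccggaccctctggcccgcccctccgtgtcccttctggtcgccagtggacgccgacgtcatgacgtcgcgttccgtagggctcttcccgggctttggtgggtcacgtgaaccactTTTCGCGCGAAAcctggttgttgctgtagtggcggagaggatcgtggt
MCM3: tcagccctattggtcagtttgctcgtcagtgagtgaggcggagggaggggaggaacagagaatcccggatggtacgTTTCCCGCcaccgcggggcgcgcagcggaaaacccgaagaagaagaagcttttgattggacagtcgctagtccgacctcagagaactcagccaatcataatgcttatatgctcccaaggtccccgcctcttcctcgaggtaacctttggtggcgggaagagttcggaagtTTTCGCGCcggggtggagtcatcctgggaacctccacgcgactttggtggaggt
MCM6: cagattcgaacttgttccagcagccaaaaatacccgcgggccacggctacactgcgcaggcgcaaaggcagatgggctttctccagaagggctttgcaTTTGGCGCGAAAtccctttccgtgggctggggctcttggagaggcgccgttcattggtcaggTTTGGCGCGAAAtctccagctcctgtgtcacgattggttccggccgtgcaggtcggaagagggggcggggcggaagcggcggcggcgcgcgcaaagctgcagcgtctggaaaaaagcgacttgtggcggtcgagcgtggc
ORC4: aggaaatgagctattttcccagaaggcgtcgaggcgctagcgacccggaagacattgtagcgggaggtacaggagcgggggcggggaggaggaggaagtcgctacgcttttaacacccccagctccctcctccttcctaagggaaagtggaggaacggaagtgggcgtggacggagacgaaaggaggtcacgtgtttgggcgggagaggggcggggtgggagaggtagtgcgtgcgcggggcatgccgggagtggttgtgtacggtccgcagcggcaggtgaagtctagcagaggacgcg
In MCM6 the words begin 152, 148, 90 and 86 bases before the start, as 2 overlapping pairs. In MCM2 a pair begins at bases 3 and 7 after the start, and in MCM3 the words begin 174 and 4 bases before it. Of the 5 protein-coding ORC4 transcripts in GENCODE 29, 4 start inside the window shown, and neither this window nor the other listed for ORC4 holds an E2F word. CCAAT and TTTGAA were also searched on both strands of the same windows. CCAAT was found for 61.1% of the 36 genes, 39.7% of all genes in the table and 43.1% of the genes tested here that have an entry. TTTGAA, the core of the cell cycle homology region of mitotic genes, was found for 1 of the 36 genes, or 2.78%. It was found for 18.2% of all genes and 13.9% of the genes tested here that have an entry. The E2F words hold mostly G and C and TTTGAA mostly A and T, and the base composition of the windows was not compared.

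The 6 subunits of the ORC mark origins on DNA. ORC4, an ATPase-fold subunit of the complex, had 34.9, 35.6, 33.0 and 38.1 CPM in LDL 1 to 4, against 32.8, 31.3, 30.6 and 30.4 CPM in control 1 to 4. Every LDL sample lay above every control sample, and LDL 3 lay closest to control 1, the highest control. The difference was 1.13-fold (log2 fold change 0.18, SE 0.067; exact two-sided permutation p = 0.0286, the smallest that 4 against 4 samples can give), and it did not pass over all genes (edgeR unadjusted p = 0.016, adjusted p = 0.822). Without LDL 4 the log2 fold change was 0.14 (edgeR unadjusted p = 0.052, adjusted p = 0.948). On the FPKM scale the groups overlapped, since LDL 3 stood at 4.96 FPKM and control 1 at 5.05 FPKM. ORC4 lies on chromosome 2 from 147930397 to 148021604 on the minus strand (GRCh38), where ACVR2A and MBD5 overlap it on the opposite strand. The log2 fold change of ACVR2A was -0.085 and that of MBD5 was 0.098, with edgeR unadjusted p of 0.604 and 0.438, and no source used here says if reads were counted by strand. The other 5 ORC genes had log2 fold changes from -0.086 (ORC1, the subunit that is regulated through the cycle) to 0.0009 (ORC5). ORC2, ORC3 and ORC6, the smallest subunit, lay between them at -0.028, -0.059 and -0.011. ORC5, another ATPase-fold subunit, had 13.7, 13.7, 11.8 and 10.6 CPM in LDL 1 to 4, against 11.4, 13.3, 12.5 and 12.6 CPM in control 1 to 4. The LDL samples took in the whole range of the control samples, with LDL 1 and 2 above it and LDL 4 below it (95% interval of the log2 fold change from -0.23 to 0.23, edgeR unadjusted p = 0.993, adjusted p = 0.998).

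CDC6 and CDT1 bring the helicase to ORC, and GMNN (geminin) binds CDT1 and prevents a further round of licensing. GMNN had 49.9, 66.5, 61.5 and 61.9 CPM in LDL 1 to 4, against 59.1, 56.3, 57.2 and 55.7 CPM in control 1 to 4. LDL 2, 3 and 4 lay above every control sample and LDL 1 below every control sample. The log2 fold change was 0.071 with a 95% interval from -0.088 to 0.23 (edgeR unadjusted p = 0.359, adjusted p = 0.937). CDC6 averaged 109 ± 6.11 CPM in LDL and 107 ± 6.10 CPM in control samples, and CDT1 averaged 89.4 ± 2.25 CPM in LDL and 87.8 ± 3.82 CPM in control samples (SD, n = 4 each), so both differed by less than their spread. The ratio of CDT1 to GMNN FPKM was 0.672 ± 0.0605 in LDL and 0.693 ± 0.0241 in control samples, and LDL 1 held the highest ratio, 0.758.

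The log2 fold changes of all 6 genes from MCM2 to MCM7 were negative, from -0.075 (MCM2) to -0.015 (MCM7), and none passed. MCM2, which carries the histone-binding tail of the ring, had 267, 234, 232 and 247 CPM in LDL 1 to 4, against 255, 241, 265 and 273 CPM in control 1 to 4. The groups overlapped, with LDL 1 between control 3 and control 4 (log2 fold change -0.075, SE 0.055, edgeR unadjusted p = 0.187, adjusted p = 0.897). MCM7 made up 23.5% ± 0.456 of the summed FPKM of the 6 genes in LDL and 23.1% ± 0.610 in control samples, and MCM6 made up 8.93% ± 0.285 in LDL and 8.89% ± 0.309 in control samples (SD, n = 4 each). These were the highest and lowest shares, and each of the 6 shares differed between groups by less than the wider of its spreads. MCM6 was the steadiest of the 41 genes in LDL samples, where its coefficient of variation was 0.771% in CPM.

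The genes that turn the loaded ring into a moving helicase are CDC45, GINS1 to GINS4, and MCM10, which acts in opening the DNA. Of these 6 genes 3 lay above and 3 below 0, from -0.072 (GINS4) to 0.045 (GINS2). GINS4 had 116, 98.8, 102 and 96.5 CPM in LDL 1 to 4, against 104, 106, 112 and 111 CPM in control 1 to 4. LDL 1 was the highest of all 8 samples, while LDL 2, 3 and 4 lay below every control sample (log2 fold change -0.072, SE 0.060, edgeR unadjusted p = 0.25, adjusted p = 0.918). CDC45, which joins GINS on the ring, averaged 56.2 ± 1.74 CPM in LDL and 55.1 ± 1.18 CPM in control samples (SD, n = 4 each).

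PCNA and the 5 subunits of its loader, replication factor C, gave 5 log2 fold changes above 0 and 1 below, from -0.020 (RFC5) to 0.065 (RFC4). PCNA had 248, 302, 294 and 278 CPM in LDL 1 to 4, against 275, 273, 265 and 269 CPM in control 1 to 4. LDL 2, 3 and 4 lay above every control sample and LDL 1 below every control sample. The log2 fold change was 0.051 (SE 0.056, edgeR unadjusted p = 0.371, adjusted p = 0.94). RFC1, the large subunit, and RFC4 had the same layout in part: LDL 1 was the lowest of all 8 samples for both, at 62.1 and 49.7 CPM, and LDL 4 was the highest, at 76.2 and 64.0 CPM. Over the 6 genes of clamp and loader, the mean log2 CPM relative to all 8 samples was -0.11 in LDL 1, 0.036 to 0.097 in LDL 2, 3 and 4 and -0.074 to 0.032 in control samples.

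**Figure D4:**
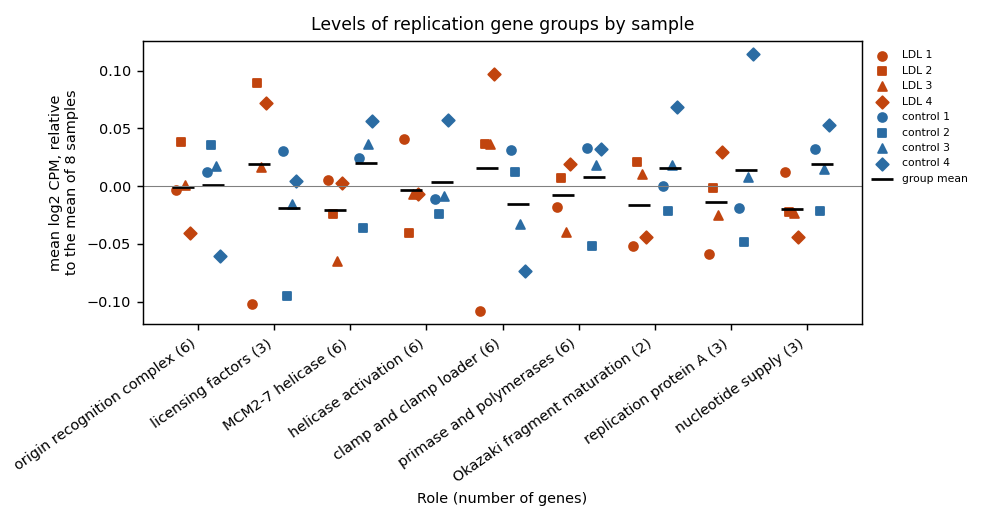
Mean log2 CPM of each role's genes, relative to the mean over 8 samples, in LDL 1 to 4 and control 1 to 4, with a bar at each group mean. LDL 1 stands at -0.10 for the licensing factors and at -0.11 for the clamp and its loader, and the other LDL samples lie above 0 in both. Control 2 stands at -0.095 for the licensing factors. In LDL 1 GMNN lies at -0.23, CDC6 at -0.041 and CDT1 at -0.040, and control 2 is lower for CDC6 (-0.13) and CDT1 (-0.10).

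Polymerase alpha-primase (POLA1, POLA2, PRIM1 and PRIM2) starts each new strand, and POLD1 and POLE are the catalytic subunits that extend the lagging and the leading strand. POLE had 140.2, 144, 129 and 134 CPM in LDL 1 to 4, against 142, 142, 147 and 148 CPM in control 1 to 4. LDL 1, 3 and 4 lay below every control sample and LDL 2 among them (log2 fold change -0.081, SE 0.049, edgeR unadjusted p = 0.118, adjusted p = 0.884). POLA1 had 34.1, 39.6, 38.5 and 40.5 CPM in LDL 1 to 4, against 40.1, 37.1, 39.7 and 35.7 CPM in control 1 to 4. The groups overlapped, with LDL 1 the lowest and LDL 4 the highest of all samples, and the log2 fold change of 0.0006 was the closest to 0 of all 41 (95% interval from -0.15 to 0.15, edgeR unadjusted p = 0.994, adjusted p = 0.998). The log2 fold changes of PRIM1, PRIM2, POLA2 and POLD1 ran from -0.023 to 0.018. The catalytic primase gene PRIM1 stood at 1.35 ± 0.159 times the FPKM of its partner PRIM2 in LDL and 1.35 ± 0.137 times in control samples (SD, n = 4 each).

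On the lagging strand FEN1 trims the flaps of Okazaki fragments and LIG1 seals them. LIG1 had 129, 137, 137 and 119 CPM in LDL 1 to 4, against 129, 131, 136 and 145 CPM in control 1 to 4. The groups overlapped, with LDL 4 the lowest and control 4 the highest of all samples (log2 fold change -0.051, SE 0.057, edgeR unadjusted p = 0.382, adjusted p = 0.942). From FPKM values the log2 fold change of LIG1 was 0.033 to 0.034 with a pseudocount of 1 or 0.1, so its direction depends on the scale. FEN1 averaged 188 ± 7.53 CPM in LDL and 190.0 ± 3.47 CPM in control samples (SD, n = 4 each). FADS2 overlaps FEN1 on the same strand. Of the 41 genes, 11 had an annotated gene that overlaps on the same strand, and the part of such overlaps in the levels was not tested.

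Replication protein A (RPA1, RPA2 and RPA3) coats the exposed strand. RPA1, the large DNA-binding subunit, had 199.7, 176, 173 and 174 CPM in LDL 1 to 4, against 182, 182, 192 and 209 CPM in control 1 to 4. LDL 2, 3 and 4 lay below every control sample and LDL 1 between control 3 and control 4 (log2 fold change -0.082, SE 0.059, edgeR unadjusted p = 0.182, adjusted p = 0.896). RPA3, the smallest subunit, was the most variable of the 41 genes in LDL samples, with 12.2 to 17.8 CPM there and 14.1 to 16.4 CPM in control samples. Its FPKM in LDL 4 was 14.9, while LDL 1, 2 and 3 had 5.96 to 7.70 FPKM and the control samples 6.63 to 7.73 FPKM, a gap that the counts did not show. RPA2, the middle subunit, averaged 84.4 ± 2.19 CPM in LDL and 86.9 ± 1.75 CPM in control samples (SD, n = 4 each), a log2 fold change of -0.041 (edgeR adjusted p = 0.949). UMAD1 overlaps RPA3 on the opposite strand. UMAD1 had 7.03 CPM in LDL 4 and 5.79 to 7.99 CPM in the other samples (log2 fold change 0.035, edgeR unadjusted p = 0.804).

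TYMS makes thymidylate, and RRM1 and RRM2 form the ribonucleotide reductase that makes deoxynucleotides. RRM1 had 207, 205, 193 and 205 CPM in LDL 1 to 4, against 213, 205, 211 and 223 CPM in control 1 to 4. LDL 2, 3 and 4 lay below every control sample and LDL 1 above only control 2 (log2 fold change -0.075, SE 0.046; exact two-sided permutation p = 0.0571; edgeR unadjusted p = 0.126, adjusted p = 0.884). The exact permutation p of ORC4 and RRM1 were the smallest among the 41 genes, followed by that of POLE (exact two-sided permutation p = 0.0857). RRM2 had 338, 329.7, 343 and 314 CPM in LDL 1 to 4, against 340.3, 332, 333 and 338 CPM in control 1 to 4. LDL 3 was the highest and LDL 4 the lowest of all samples (log2 fold change -0.019, SE 0.044, edgeR unadjusted p = 0.673, adjusted p = 0.972). TYMS had 243, 234, 239 and 235 CPM in LDL 1 to 4, against 245, 233, 243 and 246 CPM in control 1 to 4. All LDL samples lay within the range of the control samples (log2 fold change -0.023, SE 0.043, edgeR unadjusted p = 0.599, adjusted p = 0.962). The ratio of RRM2 to RRM1 FPKM was 1.55 ± 0.114 in LDL and 1.49 ± 0.0575 in control samples.

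**Figure D5:**
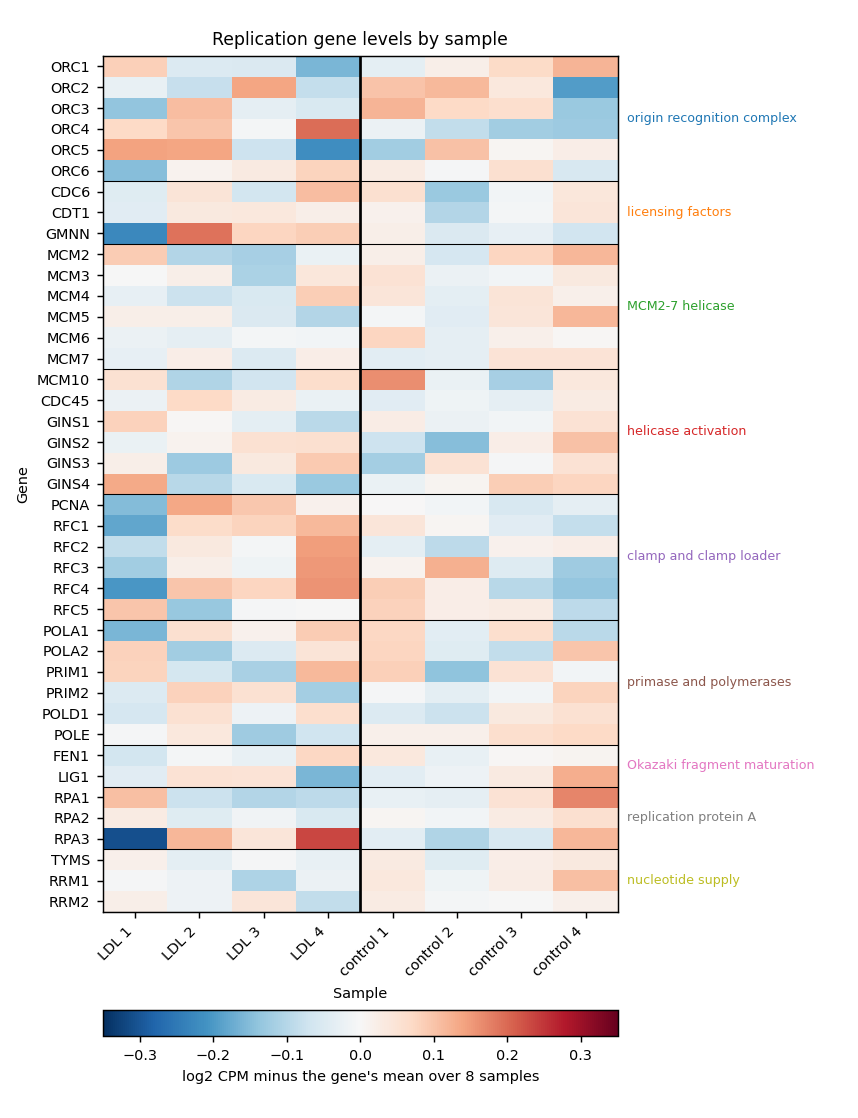
Log2 CPM of each of the 41 genes minus its mean over 8 samples, with LDL 1 to 4 left of the line and control 1 to 4 right of it, grouped by role. The colours run from -0.31 (RPA3 in LDL 1) to 0.23 (RPA3 in LDL 4), and LDL 1 differs from LDL 2, 3 and 4 in GMNN, PCNA, RFC1, RFC4, GINS4 and RPA1. Over the 41 genes LDL 4 deviated more, with a median absolute deviation of 0.085 against 0.063 in LDL 1. LDL 4 was the highest of all 8 samples for 14 genes and the lowest for 9, and LDL 1 for 4 and 9.

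The median coefficient of variation of the 41 genes was 6.31% in LDL and 4.30% in control samples, and it was higher in LDL samples for 29 of 41 genes. The same was true of 67.1% of the 9164 genes in the same CPM range, beside 70.7% of the 41. Without LDL 1 the fit gave 8 of 41 genes at an unadjusted p under 0.05, against 14.5% of all genes in that fit, and 0 of 41 at an adjusted p under 0.05, against 0.954%. Of the 8, ORC4, GMNN, RFC4 and PCNA were higher in LDL samples (log2 fold changes 0.19, 0.15, 0.14 and 0.11) and RPA1, GINS4, ORC1 and MCM2 were lower (-0.13, -0.13, -0.13 and -0.12). Their smallest adjusted p was 0.208. Leaving out other samples brought several of these genes closer to 0, among them ORC4, at 0.14 without LDL 4. Leave-out values scatter around the fit of all samples, so shifts both ways follow from the calculation. They decide nothing about the fit without LDL 1. Without LDL 2 the log2 fold change of GMNN was 0.014 and that of PCNA 0.011, without LDL 4 that of GINS4 was -0.040, without LDL 3 that of MCM2 was -0.050 (also without control 4), and without control 4 that of RPA1 was -0.038. Without LDL 4 there were 0 of 41 at an unadjusted p under 0.05, against 5.26% of all genes, and 0 of 41 at an adjusted p under 0.05, against 0.166%. Without both LDL 1 and LDL 4, a choice made after the data were seen, 6 of 41 had an unadjusted p under 0.05, against 13.9% of all genes, and 0 of 41 an adjusted p under 0.05, against 1.56%.

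A further 65 genes of replication were followed in the same fit: polymerase accessory subunits, origin firing factors, fork protection and alternative clamp loaders, chromatin assembly, Okazaki and topoisomerase enzymes, nucleotide synthesis, and the E2F and RB regulators. None passed at an adjusted p under 0.05, 31 lay above and 34 below 0, and their median log2 fold change was -0.0032. At an unadjusted p under 0.05 there were 5 of 65, against 5.59% of all genes tested. The smallest p belonged to CHTF18, a subunit of an alternative clamp loader, which had 64.7, 72.9, 66.6 and 70.4 CPM in LDL 1 to 4, against 60.3, 61.4, 59.6 and 61.5 CPM in control 1 to 4. Its groups did not overlap (1.13-fold, edgeR unadjusted p = 0.00596, adjusted p = 0.675). POLD4, the smallest subunit of polymerase delta, averaged 37.3 ± 1.77 CPM in LDL and 32.9 ± 1.69 CPM in control samples (SD, n = 4 each; edgeR adjusted p = 0.817), and TICRR, an origin firing factor, averaged 40.2 ± 2.98 CPM in LDL and 45.4 ± 0.852 CPM in control samples (edgeR adjusted p = 0.822). The groups of POLD4 and TICRR did not overlap either, which makes 3 of 65 genes, against 3.45% of all genes tested. E2F1, the activator of many of these genes, had a log2 fold change of 0.054 (edgeR unadjusted p = 0.324), and of the 17 E2F and RB regulators 9 lay above and 8 below 0.

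Mitosis genes, which act later in the cycle, were looked at beside them. The log2 fold change was negative for 19 of 20 such genes (median -0.058), against 47.7% of all genes tested, and none passed at an adjusted p under 0.05. At an unadjusted p under 0.05 there were 4 of 20, all lower in LDL samples, against 5.59% of all genes tested, and the groups did not overlap for 2 of 20, both lower in LDL samples, against 3.45%. The smallest p among them was that of the kinase gene AURKA, at 113 ± 3.06 CPM in LDL and 126 ± 4.49 CPM in control samples (SD, n = 4 each; edgeR unadjusted p = 0.0061, adjusted p = 0.675). The mitosis list was chosen with earlier results of these data known. Its 20 genes were measured in the same 8 samples, so they are not independent observations. Whether replication and mitosis genes differ in their response was not tested.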

How the data were processed

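The deposited tables hold estimated counts and FPKM for 22554 features in 8 samples of SKOV3 cells, from stranded mRNA libraries per the labels' protocols. Per the submitters' processing notes the tools included HISAT2, featureCounts and DESeq2 1.26.0 with the GRCh38 build, without a role for each. The deposited counts are whole, but 55.2% of the values from 1 to 20 are even, and 32 features are at 0 in some libraries and average above 100 in the others, so they were treated as estimated counts, all whole already. The deposited FPKM values carry the authors' own scaling to gene length and depth. FPKM served to compare levels between genes and, in alternatives, for limma on log2(FPKM + 1) or log2(FPKM + 0.1).

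Counts were fitted with edgeR 4.0.16 in R 4.3.3 (TMM, default expression filter, robust quasi-likelihood test, group as the only term) on all genes, with 15432 tested and Benjamini-Hochberg adjustment over all of them. Intervals are 95% intervals of the fitted log2 fold change. CPM values use TMM library sizes. Levels per role are means of log2 CPM with a prior count of 2. The fit was tested on simulated data with known changes. Between libraries of the same group, chi-square over its degrees of freedom was 6.84 to 28.9, so none was taken as a repeat. Promoters came from RefSeq (GRCh38.p14), gene positions and transcript starts from GENCODE 29 (GRCh38). The 41 genes and the lists were chosen with earlier results of these data known. Values per sample were given for genes called or with an unadjusted p under 0.05, for the smallest p in each of 9 roles, for the 3 highest and 3 lowest FPKM levels and for non-overlapping groups. For other replication genes the 3 smallest p were named, and for mitosis genes the smallest. RFC1, RFC4, RPA3, CDC6, CDT1, CDC45, FEN1, MCM6, MCM7, E2F1 and other genes outside these rules were named as examples of their roles after their values were seen. MCM5, RPA2, RPA3, MCM4 and GINS4 had no promoter entry. Alternatives were DESeq2 1.42.0, limma 3.58.1, other scalings and filters, thinning, a replicate block and leaving out each sample. No value of depth, marker genes or library was tested as a cause.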

Additional observations from a re-analysis of the deposited data

Results flagged for a closer look

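Of 82 groups of 4 samples (41 genes in LDL and in control samples), 2 held a sample whose gap to its nearest neighbour took a larger part of the group's range than Dixon's 95% critical value allows, where about 1 in 20 groups is expected by chance. RPA1 stood at 199.7 CPM in LDL 1, against 173 to 176 CPM in LDL 2, 3 and 4. RRM1 stood at 192.6 CPM in LDL 3, against 204.8 to 207.2 CPM in the other LDL samples.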

How the results depend on the processing

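The 41 replication genes gave 0 calls at an adjusted p under 0.05 in all 20 alternatives, and so did the 65 other replication genes. The median log2 fold change of the 41 ran from -0.024 to -0.0016 and the number below 0 from 21 to 28. That of the other 65 genes, -0.0032 in the fit of all samples, was 0.018 with log2(FPKM + 1), with or without a minimum, and 0.019 with log2(FPKM + 0.1). The number of genes called over the whole table was 10 in edgeR, 47 in DESeq2, 2 with the replicate block, 4 with log2(FPKM + 1), 2 with log2(FPKM + 0.1), 3 with log2(FPKM + 1) and no minimum, and 248 without LDL 1 and LDL 4 (added after seeing the data). With 1 sample left out in turn it ran from 2 to 149. Same-numbered samples did not deviate together (correlations from -0.10 to 0.060 across genes). This cannot tell if they were handled together, and the labels do not say so. The replicate block changed no call among the 41. ORC4 stayed above 0 in all 20 alternatives, from 0.13 to 0.21 on the log2 scale, with adjusted p from 0.214 to 0.9997. LIG1 turned to 0.033, 0.034 and 0.033 in the FPKM fits and to 0.016 without LDL 1 and LDL 4, and RRM2 to 0.0059 without LDL 4. With 1 sample left out in turn GMNN ran from 0.014 to 0.15, PCNA from 0.011 to 0.11, GINS4 from -0.13 to -0.040, RPA1 from -0.13 to -0.038, MCM2 from -0.12 to -0.050, POLE from -0.11 to -0.053, RRM1 from -0.092 to -0.051, TYMS from -0.041 to -0.017, LIG1 from -0.080 to -0.0085 and RRM2 from -0.036 to 0.0059. ORC5, at 0.0009 in the fit of all samples, was -0.0014 with DESeq2 size factors, -0.0076 with upper-quartile factors, -0.0075 with no filter, -0.0052 with at least 1 CPM, -0.0017 in DESeq2, -0.0018 in limma voom, -0.0046 with the replicate block, -0.0053 after thinning, -0.0016 and -0.0027 in the FPKM fits, and -0.050 to 0.069 with 1 sample left out in turn. POLA1, at 0.0006, was -0.0019 with DESeq2 size factors, -0.0082 with upper-quartile factors or no filter, -0.0056 with at least 1 CPM, -0.0025 in DESeq2, -0.0012 in limma voom, -0.00070 with the replicate block, and -0.032 to 0.051 with 1 sample left out in turn. The cause of these shifts was not tested.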
